A study of Homo sapiens with 3 samples.

Results

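HCT116 is a cell line derived from a human colorectal carcinoma. The transcripts described here were those measured in the negative control of a PRMT1 knockdown experiment, on 1 array named PRMT1-NC. The cells, grown in McCoy's 5A medium with fetal bovine serum, were by the labels' protocol transfected with Lipofectamine, and the study's text names a scrambled negative control, so they are described here as transfected cells and not as untreated ones. The series holds 3 arrays in all, and the other 2 arrays, PRMT1-KD1 and PRMT1-KD2, carried RNA of the same line after knockdown of PRMT1. The labels' protocol gives 2 siRNAs for the knockdown, whereas the study's text also speaks of short hairpin RNAs. They were used here in 1 way only, to see how often a call made on the control array was made again. There was 1 array per group, so the control values have no replicate error and no test was run.

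A gene was taken as detected when at least 1 of its probes had a spot that the scanner software called well above background and that carried no outlier flag. By this rule 18128 of 41760 gene names were detected, which is 43.4%. Among protein-coding genes 12501 of 18542 were detected (67.4%), and among long noncoding RNAs that RefSeq names 901 of 2973 were (30.3%). These 3 shares are the background for the counts below. The signal of a gene is the log2 intensity of its brightest detected probe minus the 75th percentile of the array's probes, so that 0 stands for an intensity of 117 scanner units, and its percentile is its place among the 18128 detected genes.

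HCT116 belongs to the mismatch repair deficient class of colorectal cancers and carries an activating change in CTNNB1, the gene of beta-catenin, in place of the loss of APC found in most such tumors. Beta-catenin, together with TCF and LEF factors, drives Wnt target genes that in the normal intestine keep crypt cells dividing. Cells that leave the crypt switch on the genes of absorptive or secretory cells. A cell line grown on plastic also holds no stroma, blood vessel or blood cell, so markers of those cells serve as a reference for what the array reads where no such cell is present.

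The detected signals covered a wide range. The lowest detected signal was -2.70, the median 1.24 and the highest 11.96, and the 5th and 95th percentiles, -2.24 and 7.05, lay 626-fold apart. The brightest 10 genes held 4.45% of the summed intensity of detected genes, the brightest 100 held 28.6% and the brightest 1000 held 76.2%. A total of 272 genes held 50% of it. No non-control spot was saturated. Of the 308 negative control spots 4 were called well above background (1.30%).

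**Figure D1:**
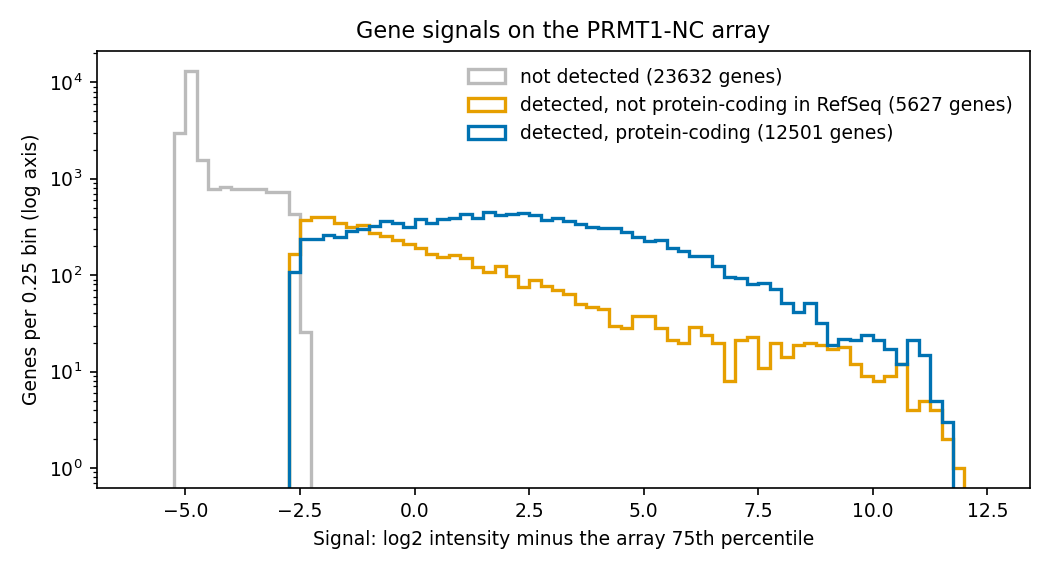
Distribution of gene signals on the PRMT1-NC array, in genes per bin of 0.25 on a log axis, against log2 intensity minus the array's 75th percentile. The 23632 genes not detected pile up near -4.86, their median. The detected protein-coding genes have a median of 2.01, and the brightest gene, SNAR-A3 at 11.96, is not protein-coding.

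Precision was set by the probe far more than by the spot. For the 272 probes that were printed many times and were bright in all usable spots, the SD between spots had a median of 0.044 on the log2 scale. For the 4101 genes with at least 2 detected probes, the SD between probes had a median of 1.43, the brightest and dimmest detected probes were more than 4-fold apart in 53.6% of them and less than 2-fold apart in 24.8%. Of genes with several probes and some detection, 47.7% were detected by some of their probes only. How bright a spot is depends on the probe as well as on the transcript, so the order of genes given below is an order of spot signals, not of transcript amounts, and differences of about 1 or 2 units between genes are within the spread between probes of the same gene.

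A dim call was also made again less often on the other 2 arrays. Those arrays are knockdowns and not replicates of the control, so measurement error and knockdown cannot be told apart in a changed call. When detected genes were split into 5 equal classes by signal, the call was made again on both other arrays for 2718 of 3625 genes of the dimmest class, 96.6% of the next and 99.97% of the middle class, and for 100% of the 2 brightest classes. Of the genes not detected on the control array, 2.25% were detected on both others. At the edge of the call, the 3 dimmest detected RefSeq genes were LOC101929633 at -2.69, GCG, the glucagon gene, at -2.68 and U2SURP, a spliceosome factor, at -2.68. The brightest RefSeq genes on the other side of the call were SLC4A1 at -2.41, ZNF474 at -2.42 and LINC00960 at -2.44, and SLC4A1 was detected on both other arrays.

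The labelled cell type was checked against 10 markers of colorectal epithelium. KRT18 and KRT8, partner keratins of simple epithelia, had signals of 10.46 (percentile 99.5) and 9.22 (percentile 98.6). The second KRT18 probe read 8.36, whereas the dimmest of 3 KRT8 probes read 2.71. KRT19, a further simple-epithelial keratin, was the eighth brightest gene at 11.36. EPCAM, an epithelial adhesion molecule, read 6.44 (percentile 93.2), and CDH1, which encodes E-cadherin, read 1.23 (percentile 49.95) from its only probe. AXIN2, a feedback target of Wnt signaling, read 0.02 (percentile 35.2) from 1 of 2 probes. CDX2, the homeobox factor of intestinal identity, read 2.60 (percentile 66.0). The other markers, VIL1 of the brush border, LGR5 of crypt stem cells and KRT20 of mature colonocytes, were not detected, each on 1 probe. Thus 7 of 10 markers were detected, a share near the 67.4% of protein-coding genes, and the count alone does not mark the cell type. The 4 markers that define the label here were among the 7.

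The genes that the study itself turned on were all detected. PRMT1, the main enzyme of asymmetric arginine dimethylation, had a signal of 6.01 (percentile 91.5) from a probe at chromosome 19, 50188248 to 50189362 (hg19), a span that crosses a splice junction because the probe itself has 60 bases. SMARCA4, the ATPase of SWI/SNF chromatin remodelers, had a signal of 6.29 (percentile 92.7) from a probe at chromosome 19, 11172673 to 11172732. TNS4, a tensin that links growth factor receptors to integrins, had 4.44 (percentile 82.6). EGFR, the epidermal growth factor receptor, had 1.72 (percentile 55.7), and its 3 probes ranged down to -1.75. PRMT1 and SMARCA4 thus stood above the 90th percentile of detected genes, and EGFR near the middle.

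The brightest RefSeq genes fell into few kinds. Of the 25 brightest, 14 encoded cytosolic ribosomal proteins, led by RPS2 at 11.69 and RPS18 at 11.54. SNAR small RNAs, which bind the protein NF90, took 5 places, with SNAR-A3 the brightest gene of the array at 11.96, SNAR-B2 at 11.62, SNAR-D at 11.56, SNAR-H at 11.26 and SNAR-G2 at 11.06. These RNAs come from near-identical gene copies, so the signals of single members are uncertain. The remaining 6 included H4C3, a replication-dependent histone gene, at 11.56, KRT19, the cytokine gene MIF at 11.19, ZNF865 at 11.25 and CC2D1A at 11.15. Probes disagreed strongly for some of these genes. The other detected probe of ZNF865 read 1.27, the dimmest of CC2D1A -1.73, the other of H4C3 4.65, and the dimmest of RPS26, itself at 11.16, -0.47.

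Protein synthesis and degradation genes were detected nearly without exception. All 76 measured cytosolic ribosomal protein genes were detected with a median signal of 10.53, against 1.24 for all detected genes, and 75 of them lay above the 90th percentile. The exception was RPL27A, at 1.01 from 1 probe. Translation factors were detected in 35 of 35 cases with a median of 7.07, from EEF1G, an elongation factor subunit, at 10.44 down to EIF2S3, a subunit of the initiation factor that carries the first tRNA, at -2.33. The 77 mitochondrial ribosomal protein genes were also all detected, with a median of 5.87 and a lowest signal of 1.16 for MRPL1, as were 13 of 13 cytosolic aminoacyl-tRNA synthetases. Proteasome genes were detected in 34 of 37 cases with a median of 6.37, led by PSMD2 at 9.55. The 3 not detected were PSMA8, a testis form, PSMB11, a thymus form, and PSMB8, an interferon-inducible subunit of the immunoproteasome. Its partner PSMB9 was the dimmest detected proteasome gene, at 1.799, whereas PSMB10, a further immunoproteasome subunit, read 7.60 (percentile 96.25).

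The same held for energy metabolism, where the undetected members were mostly tissue isoforms. Respiratory chain and ATP synthase genes were detected in 46 of 50 cases with a median of 7.10, led by COX6A1 at 9.98 and COX8A at 9.83. The 4 not detected were COX4I2, COX6A2, COX7A1 and COX7B2, which are tissue-restricted forms of subunits. Glycolysis genes were detected in 21 of 27 cases with a median of 5.85. GAPDH read 10.29, GPI 8.77, ALDOA 8.76 and LDHB 8.76, and the dimmest detected member was LDHC, a testis lactate dehydrogenase, at -1.47. HK3, GAPDHS, PGK2 and PKLR, forms of blood cells, sperm or liver, were among those not detected. Not all tissue forms were undetected, since COX6B2 of testis read 5.64 from 1 of 2 probes and ENO3 of muscle 4.56. Chaperones were detected in 29 of 37 cases, from PPIA at 10.35 and HSP90AA1 at 9.49 to CRYAB, a lens and muscle small heat shock protein, at -2.24.

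Some genes that dividing cells need were nevertheless dim or not detected. CCT5, a subunit of the chaperonin that folds actin and tubulin, was not detected on its only probe (-4.09), although the same probe was called detected on both other arrays, and another subunit, CCT4, read 9.08. U2SURP and EIF2S3, both named above, sat at the lower edge of detection. A gene not detected here is thus a probe that was not well above background and not a gene shown to be silent.

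All genes of DNA replication and mitosis on the lists were detected. Of replication licensing and fork genes 38 of 38 were detected with a median of 3.55, which was percentile 75.6. TK1, the thymidine kinase of S phase, read 10.04, the helicase subunits MCM7 and MCM3 read 8.73 and 6.58, and the licensing factor CDT1 read 7.10. The dimmest was CDC6, a loader of the same helicase, at -1.48. Mitosis genes were detected in 38 of 38 cases with a median of 3.73, from BIRC5, which encodes survivin, at 8.21, CKS1B at 7.91 and PTTG1, which encodes securin, at 7.75, down to the kinetochore motor CENPE at 0.24. For both lists the share of 100% compares with 67.4% of protein-coding genes in general.

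Cyclins, CDK inhibitors and RB-E2F genes were detected in 25 of 28 cases. CDK4 read 6.86, CDKN2A 6.67, CCNE1 5.60 and E2F2 5.20, and E2F8 was the dimmest at -0.27. The genes not detected were CCND2, a D cyclin, CCNA1, the germ-line cyclin A, and CDKN2B, the neighbor of CDKN2A, which was detected on both other arrays. The 2 CDKN2A probes both stood well in the detected range, the lower at 4.27. Mismatch repair genes were detected in 9 of 10 cases with a median of 2.11, and the exception was the meiotic MSH4. MSH6 read 4.71, and the dimmest was MLH3 at 0.51.

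**Figure D2:**
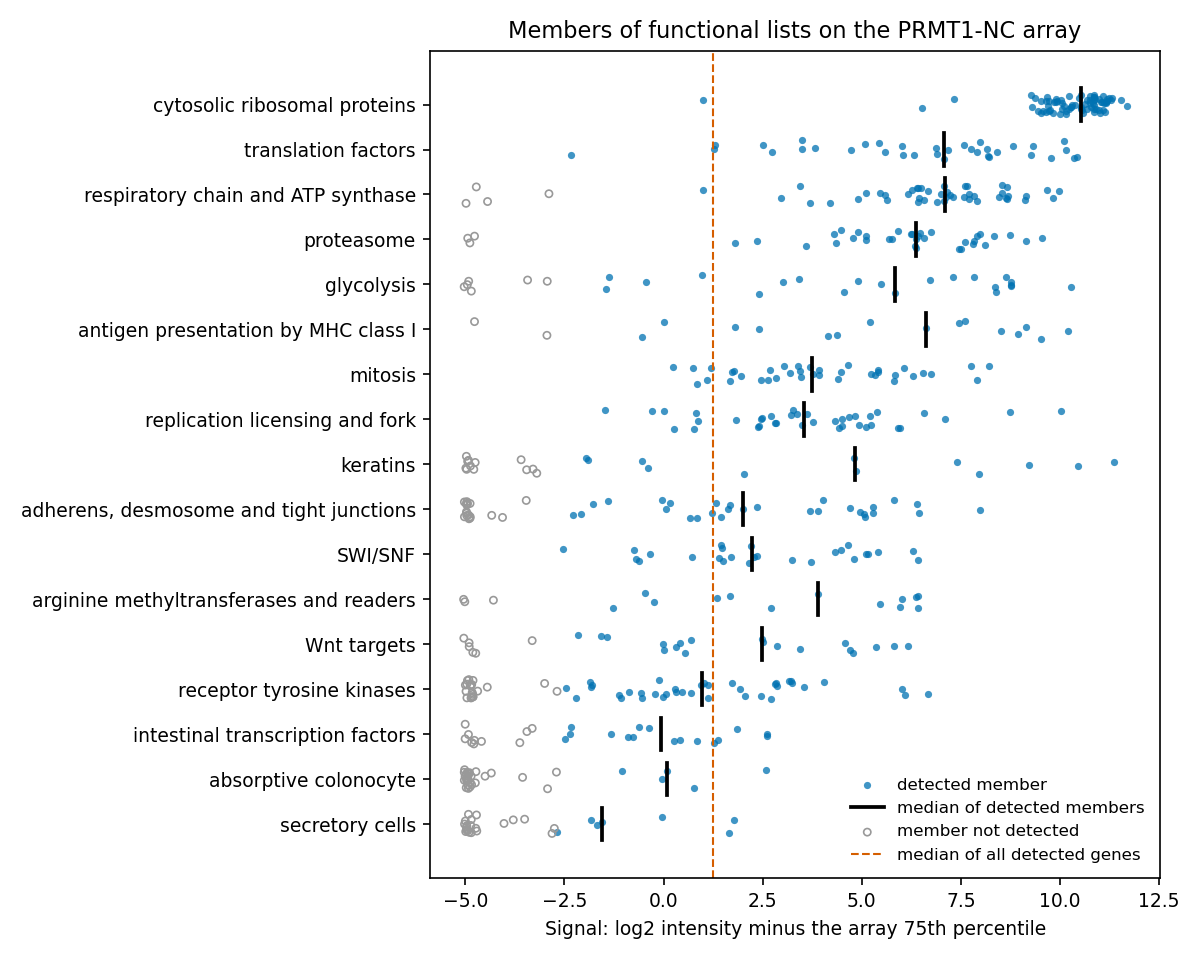
Signals of the members of 17 functional lists on the PRMT1-NC array, as log2 intensity minus the 75th percentile, with filled points for detected members, open points for members not detected and a bar at the median of the detected ones. Ribosomal proteins gather around 10.53, whereas colonocyte and secretory genes lie mostly among the open points on the left.

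Epithelial genes were a mixture of very bright and undetected members. Keratins were detected in 12 of 24 cases. Behind KRT19, KRT18 and KRT8 came KRT7, a simple-epithelial keratin, at 7.96, and the dimmest was KRT13 at -1.95. The keratins of skin KRT1 and KRT2 and of mucosa KRT4 were not detected. Adherens, desmosome and tight junction genes were detected in 29 of 46 cases, led by the tight junction gene CLDN4 at 7.97 (1 of 2 probes), EPCAM, the desmosomal gene PKP3 at 6.41 and F11R at 5.80. CDH17, the cadherin of intestinal epithelium, and the skin desmosomal genes DSC1 and DSG1 were not detected, and CLDN9 was the dimmest detected member at -2.28. All 18 epithelial splicing and polarity genes were detected, from LLGL2 at 6.21, PRKCZ at 5.83, PARD3 at 4.99 and RAB25 at 4.99 to GRHL2 at -1.07. The other probe of PRKCZ read -1.28 and that of LLGL2 1.61, and PARD3 was detected by 2 of 3 probes.

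Mesenchymal genes were detected in 10 of 18 cases (55.6%, against 67.4% of protein-coding genes). The median percentile of the detected members was 49.7. S100A4 read 7.92, VIM, which encodes vimentin, 3.41, the repressor SNAI1 3.39 and ACTA2 1.90, with CDH11 the dimmest at -2.25. CDH2, which encodes N-cadherin, FN1 and ZEB2 were not detected. Signals for E-cadherin (1.23) and vimentin (3.41) were therefore both present on this array, although being from different probes they are not a ratio of the transcripts.

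Genes of mature intestinal cells were mostly not detected. Of genes on the absorptive colonocyte list, which is not restricted to genes of the colon, 5 of 33 were detected. This was 15.2%, against 67.4% of protein-coding genes, and none of the 5 was above the 90th percentile. They were the carbonic anhydrase CA2 at 2.59, the sulfate transporter SLC26A2 at 0.77, the peptide transporter SLC15A1 at 0.08, CEACAM1 at -0.05 and the apolipoprotein APOA1 at -1.06. KRT20, SLC26A3, the chloride exchanger of colonocytes, and CA1 were among the 28 not detected, as were FABP1, a fatty acid carrier, and SI, the sucrase-isomaltase of the brush border. Of secretory cell genes 7 of 28 were detected, with a median of -1.56. FCGBP and MUC4, both goblet cell products, read 1.77 and 1.65, the gastric mucin gene MUC6 -0.04 and MUC1 -1.56. The mucin gene MUC2 read -1.84 from 2 of 4 probes and TFF1 -1.69, and both calls were made again on both other arrays. Among the genes not detected were MUC5AC, MUC5B and MUC13.

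Intestinal transcription factors were detected more often than the absorptive and secretory genes. They were detected in 16 of 26 cases (61.5%), a share near the 67.4% of protein-coding genes. Their median was -0.06, and none passed the 90th percentile. KLF4 read 2.61, CDX2 2.60, GATA6 1.85 and NEUROG3, the factor of enteroendocrine precursors, 1.38, and SPDEF, a goblet cell factor, was the dimmest at -2.47. HNF4A and HNF4G were among those not detected. Crypt stem cell genes were detected in 15 of 19 cases, with CD44 at 5.83, RNF43 at 4.78, ZNRF3 at 4.72 and the RNA-binding protein gene MSI2 at 3.05, and PTK7 dimmest at -1.82. The 4 not detected were LGR5, ASCL2, OLFM4 and SMOC2, of which SMOC2 was detected on both other arrays and the rest on neither.

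Wnt pathway members were detected to different extents by role. Ligands were detected in 9 of 19 cases with a median of -0.74, with WNT3 at 2.82, WNT3A at 1.49, WNT10B at 1.15 and WNT6 at 0.49 on top and WNT7A the dimmest at -2.53. WNT1, WNT2 and WNT2B were not detected, although WNT2B was on 1 of the other arrays. Receptors and their regulators were detected in 17 of 20 cases with a median of 0.54. The ubiquitin ligases RNF43 and ZNRF3, which remove Frizzled receptors from the surface, were the brightest, followed by RYK at 4.04 and FZD2 at 2.50. LGR4 was the dimmest at -2.37, and FZD8, FZD10 and LGR5 were not detected. Transduction genes were detected in 21 of 24 cases with a median of 2.71, led by DVL1 at 7.89, the kinase gene GSK3A at 6.99, CTNNB1 at 5.28 and PORCN, needed for ligand secretion, at 4.12. TLE3 was the dimmest at -0.59, and LEF1, PYGO1 and TLE4 were not detected.

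Wnt target genes were detected in 19 of 25 cases with a median of 2.47. MYC read 6.18, although its second probe read -1.501, CD44 5.83, the inhibitor gene NKD2 5.36 and RNF43 4.78, with CRIPTO the dimmest at -2.15. The targets LGR5, NOTUM, LEF1, ASCL2, APCDD1 and PROX1 were not detected. RNF43, ZNRF3, CD44 and LGR5 stand on several of these lists and were counted in each.

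Receptor tyrosine kinases were detected in 38 of 58 cases, close to the 67.4% of protein-coding genes, with a median of 0.97. AXL, a receptor for GAS6, read 6.68, MET, the receptor for hepatocyte growth factor, 6.09, LMTK3 6.004 and RYK 4.04, and EPHA1 was the dimmest at -2.47. ERBB4, INSRR and PDGFRA were not detected. Of EGF family ligands 6 of 11 were detected, with AREG at 6.90, EREG at 3.25, TGFA at 1.71 and HBEGF at -0.35, while BTC was the dimmest at -0.71 and EGF itself, EPGN, NRG2, NRG3 and NRG4 were not detected. Both AREG probes were bright, the dimmer at 5.10.

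Downstream of these receptors, 31 of 33 genes of the RAS, RAF and PI3K pathway were detected with a median of 1.63. PIK3R2 read 6.12, RPTOR 5.66, the adaptor gene SHC1 4.71 and TNS4 4.44. The leukocyte PI3K gene PIK3CG and the tensin gene TNS3 were not detected, although TNS3 was on both other arrays. Nuclear receptors were detected in 27 of 48 cases. NR2F6 read 7.60, NR1D1, a clock repressor, 5.81, ESRRA 5.45 and NR2F2 4.49, NR2E3 was the dimmest at -2.63, and THRB, RARB and RORA were not detected.

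The enzymes and complexes around the study's 2 chromatin genes were detected almost throughout. Of arginine methyltransferases and readers 13 of 16 were detected with a median of 3.902. SMN1, which binds methylated arginine through its Tudor domain, read 6.42, PRMT5, the main symmetric methyltransferase, 6.41, CARM1 6.38 and PRMT1 6.01, and TDRD3 was the dimmest at -1.27. SMN1 has a near-identical copy, SMN2, so its signal is uncertain. PRMT8, a brain form, and the deiminases PADI4 and PADI2 were not detected. SWI/SNF subunits were detected in 26 of 26 cases with a median of 2.23, with DPF2 at 6.42, SMARCA4 at 6.29, SMARCD3 at 5.41 and SMARCB1 at 5.15 on top and ACTL6B, a subunit of neuronal complexes, dimmest at -2.54. DNA and histone lysine methylation genes were detected in 35 of 39 cases. KDM4B read 5.46, KMT2A 5.37, SETDB1 5.07 and EED 4.88, SETD1B was the dimmest at -2.19, and DNMT3L, KDM5A, SMYD1 and PRDM9 were not detected.

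Genes of antigen presentation were listed by class. For MHC class I 15 of 17 genes were detected with a median of 6.62. HLA-E read 10.21, the chaperone gene CALR 9.13 and HLA-G 8.94. HLA genes are near-identical in parts, so single members are uncertain. ERAP2, a peptide-trimming enzyme, was the dimmest at -0.54, and PSMB8 and NLRC5, the transactivator of class I genes, were not detected, although NLRC5 was on 1 of the other arrays. For MHC class II 8 of 13 genes were detected, a share near the 67.4% of protein-coding genes, with a median of -0.57. Of these 8 calls 5 were made again on both other arrays and 2 on neither. HLA-DMA read 1.78, HLA-DQB1 0.86, HLA-DRB1 0.62 and HLA-DMB -0.32, HLA-DOB was the dimmest at -2.05, and HLA-DRA, HLA-DQA1, HLA-DOA, CD74 and CIITA, the class II transactivator, were not detected.

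Sensors of foreign nucleic acid were detected in 11 of 20 cases. EIF2AK2, which encodes the RNA-activated kinase PKR, read 4.61, MAVS 3.82, IRF7 3.75 and STING1 3.15, and DHX58 was the dimmest at -1.23. The endosomal receptors TLR7, TLR8 and TLR9 were not detected, and neither were the DNA sensors CGAS, IFI16 and AIM2, of which each had 1 probe. On the list of interferons and interleukins, which also holds other cytokines and chemokines, 15 of 44 genes were detected with a median of 0.25. LIF read 4.35, CXCL1 2.65, IL18 2.20 and IL23A 1.95, CCL5 was the dimmest at -2.29, and IFNA2, IFNB1 and IFNG were not detected, although IFNB1 was on 1 of the other arrays.

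Genes that handle fluoropyrimidines, irinotecan and oxaliplatin were detected in 27 of 32 cases with a median of 2.33. GSTP1, a glutathione transferase, read 10.14, TK1 10.04, TYMP, which activates fluoropyrimidines, 9.85 and the uridine phosphorylase gene UPP1 6.01. DPYD, which degrades 5-fluorouracil, was not detected by either of its 2 probes, and UPP2, the efflux pump gene ABCG2, SLC22A2 and SLC22A3 were not detected either. Cytochrome P450 genes of families 1 to 4 were detected in 11 of 26 cases with a median of -0.29. CYP2W1, a form known from colorectal tumors, stood far above the others at 9.73 (percentile 99.02), and CYP2R1, a vitamin D hydroxylase, read 3.79, CYP2S1 2.62, CYP1B1 1.25 and the dimmest, CYP3A7, -2.46. CYP2C8 and CYP2C18 were among those not detected, and CYP2C18 was detected on 1 of the other arrays.

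HOX genes, which mark position along the body axis, were detected by cluster. HOXA genes were detected in 9 of 11 cases, HOXB in 9 of 10, HOXC in 6 of 9 and HOXD in 1 of 9. The brightest HOXA genes were HOXA7 at 5.27, HOXA10 at 5.12, HOXA9 at 4.14 and HOXA6 at 2.19, with HOXA4 dimmest at -1.68 and HOXA2 among those not detected. HOXB9 read 4.12, HOXB8 4.05, HOXB6 3.69 and HOXB4 3.02, HOXB7 was the dimmest at -1.03 and HOXB1 was not detected. In the HOXC cluster HOXC9 read 4.11, HOXC6 1.48, HOXC8 -0.94 and HOXC13 -1.04, HOXC4 was the dimmest at -2.25, and HOXC10, HOXC11 and HOXC12 were not detected. HOXD8 was the only detected HOXD gene, at 0.68. HOXD9 was not detected by its 2 probes.

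**Figure D3:**
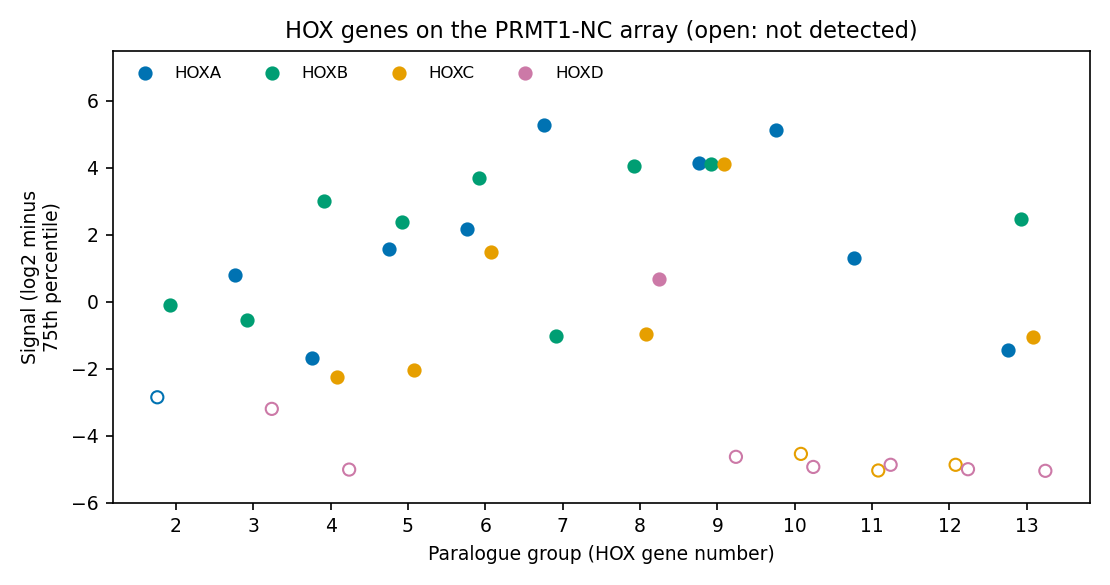
Signals of HOX genes on the PRMT1-NC array by paralogue group, from the second on, and cluster, as log2 intensity minus the 75th percentile, with open circles for genes not detected. Of the HOXD genes from the second paralogue group on, HOXD8 is the only filled circle.

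Marker lists of other cells were set beside the counts above. Besides stroma, vessel and blood cells, they cover hepatocytes, melanocytes, germ cells and pluripotency, among others. Some members, such as APOA1 and CRIPTO, also stand on lists described above, so the pooled share is not that of absent cells alone. Over the 10 lists together, each gene counted once, 54 of 150 genes were detected (against 67.4% of protein-coding genes), with a median signal of -0.34 against 1.24 for all detected genes, and for 50 of the 54 the call was made again on both other arrays. The defining markers were largely undetected. PTPRC, the pan-leukocyte gene, was not detected by any of 5 probes and CD3E and CD3G by none either, and HBB, HBD and GYPB of red cells, COL1A2, COL3A1 and COL5A1 of fibroblasts and PECAM1, KDR and TEK of endothelium were also not detected. On the other arrays HBB was detected on both, HBD and PTPRC on 1 each, and the remaining genes named here on neither.

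A few markers of other cells were nevertheless bright. TNNT1, the slow skeletal troponin gene, read 7.44, the red cell membrane gene EPB42 4.13, and the leukocyte genes CD4 (1 of 2 probes) and CD79A 4.90 and 3.59. The embryonic and fetal globin genes HBE1 and HBG1 read 3.09 and 2.70, with both HBG1 probes detected. FBLN1 read 3.34, COL1A1 1.502, MBP, the myelin gene, 2.87 from 1 of 3 probes, and UTF1, a pluripotency factor, 2.33. Calls for TNNT1, EPB42, CD4, CD79A, HBE1 and HBG1 were all made again on both other arrays. Whether the cells carry these transcripts or the probes bind others was not tested.

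For each of these lists the count was low. Blood leukocyte genes were detected in 8 of 19 cases, erythroid in 6 of 13, fibroblast in 2 of 14, endothelium in 4 of 11, hepatocyte in 5 of 17, neuron and glia in 7 of 17, skeletal and cardiac muscle in 7 of 16, melanocyte in 2 of 7 and pluripotency in 5 of 13. Of the pluripotency genes, POU5F1 was detected, also on both other arrays, whereas SOX2, NANOG and LIN28A were among those not detected. Germ cell and cancer-testis genes were detected in 8 of 23 cases, of which the X-linked MAGEA6, MAGEB2 and MAGEA12 read 6.12, 3.99 and 2.65 and PRAME 2.55. MAGEA genes are close copies of each other, so the signal of a single member is uncertain. CTAG2 was the dimmest at -1.95, and DAZL, DDX4 and SYCP1 of the germ line were not detected.

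**Figure D4:**
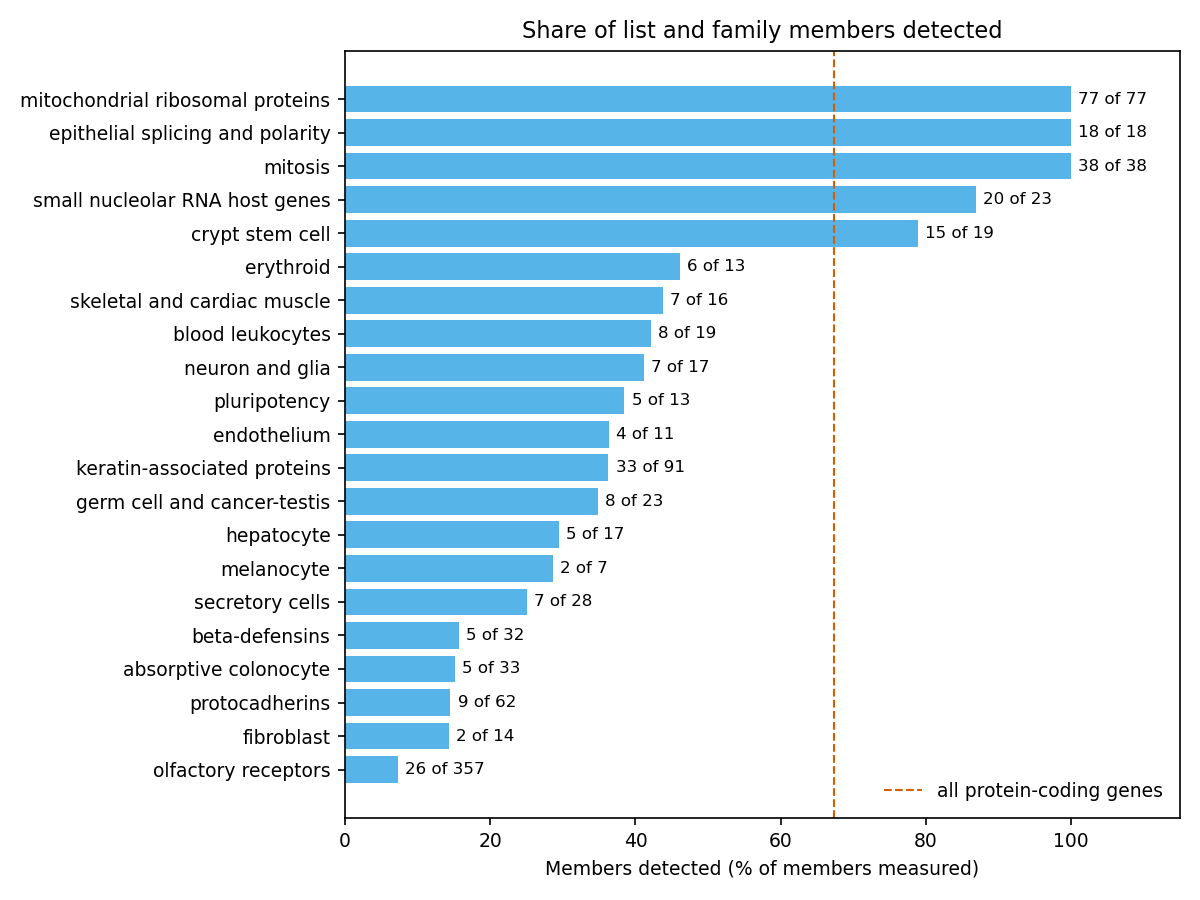
Members detected on the PRMT1-NC array as a percentage of members measured, for marker lists of other cells, selected lists of the colon epithelium and cell division, and gene families, with counts at the bars and a dashed line at the 67.4% of protein-coding genes. Mitosis genes and mitochondrial ribosomal proteins reach 100%, and olfactory receptors are the lowest at 7.28%.

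Gene families gave the same spread from full to rare detection. Olfactory receptors were detected in 26 of 357 cases (7.28%), and 16 of those 26 calls were made again on both other arrays. OR2H1 read 4.37 from 1 of 2 probes and OR51B5 3.35 with all 4 of its probes detected. OR51B5 lies in the beta-globin locus, where HBE1 and HBG1 also lie. Bitter taste receptors were detected in 4 of 25 cases, beta-defensins in 5 of 32 and protocadherins in 9 of 62, with PCDH1 at 4.77 well above the next, PCDHGA2 at 0.70. Keratin-associated proteins of hair were detected in 33 of 91 cases, led by KRTAP2-3 at 6.22 and KRTAP3-3 at 6.12. Many genes of this family are close copies, and 30 of 33 calls were made again on both other arrays.

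Some families lay near the background of 67.4%. ZNF zinc finger genes were detected in 343 of 495 cases (69.3%) with a median of 0.76, solute carriers in 233 of 376 (62.0%) with a median of 1.37 and tripartite motif genes in 41 of 65. Potassium channels were below it, detected in 30 of 94 cases, with KCNH3 at 5.46 and KCNN4 at 5.27 on top, as were collagens with 20 of 44, led by COL18A1 at 5.75. Interleukin receptors were detected in 25 of 42 cases, led by IL4R at 5.68. Above the background were RAB GTPases with 54 of 65, ubiquitin-specific proteases with 42 of 51 and DEAD-box RNA helicases with 33 of 38, the last with a median of 3.52 and DDX56 at 8.44. Among the solute carriers, SLC66A1 read 11.04 and SLC16A12, a monocarboxylate carrier, 9.95, the latter from 1 of 3 probes.

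Noncoding RNAs were detected less often than coding ones and were dimmer. The median signal was -0.46 for the 901 detected long noncoding RNAs that RefSeq names, against 2.01 for protein-coding genes. LINC genes were detected in 188 of 790 cases (23.8%), led by LINC01356 at 9.38, and names of the array that start with lnc- in 1528 of 8756 (17.5%). Small nucleolar RNA host genes were detected in 20 of 23 cases at a median of 6.80. SNHG29 read 9.20, SNHG5 8.76, SNHG9 8.74 and SNHG8 8.52, and SNHG4 was the dimmest at -1.10. Pseudogenes that RefSeq names were detected in 330 of 716 cases (46.1%), and since many resemble their parent genes, those signals are uncertain.

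The share of protein-coding genes detected differed between chromosomes. It was highest for chromosomes 16 and 22, with 602 of 768 (78.4%) and 314 of 414 (75.8%), and lowest for chromosomes X and 4, with 409 of 745 (54.9%) and 405 of 707 (57.3%), followed by chromosome 11 with 742 of 1231 (60.3%). Chromosome Y was left out. Chromosomes differ in which gene families they hold, and the part of that in these shares was not tested.

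Promoter sequence, which took no part in the detection rule, was compared between genes not detected and 5 equal classes of detected protein-coding genes. A CpG is a C followed by a G, and the CpG ratio is the number of CpGs over that expected from the base composition. Promoters rich in CpG are known from housekeeping genes and promoters with a TATA box from tissue-specific ones. RefSeq windows (GRCh38.p14) of 300 bases, from 250 before to 50 after the start, were matched for 14868 of 17903 genes, between 80.0% and 87.5% of each class. Below are 8 examples that show the contrast, each as the 150 bases before the first start listed, 5′ to 3′ on the strand of the gene, with each CpG in capitals.
PRMT1: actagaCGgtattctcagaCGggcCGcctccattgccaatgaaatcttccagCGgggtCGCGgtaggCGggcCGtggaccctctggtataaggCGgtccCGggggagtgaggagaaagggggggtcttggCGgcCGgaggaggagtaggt
SMARCA4: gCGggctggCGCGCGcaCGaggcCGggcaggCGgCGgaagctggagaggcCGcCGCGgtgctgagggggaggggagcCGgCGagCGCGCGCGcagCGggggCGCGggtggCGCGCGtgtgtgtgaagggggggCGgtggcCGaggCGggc
MCM7: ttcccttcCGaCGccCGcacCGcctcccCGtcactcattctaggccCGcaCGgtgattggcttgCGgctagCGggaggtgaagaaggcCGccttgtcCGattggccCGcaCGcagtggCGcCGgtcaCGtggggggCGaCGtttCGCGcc
CYP2W1: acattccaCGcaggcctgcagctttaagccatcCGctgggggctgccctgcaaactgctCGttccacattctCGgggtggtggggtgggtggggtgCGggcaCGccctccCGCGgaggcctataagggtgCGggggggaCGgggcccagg
FABP1: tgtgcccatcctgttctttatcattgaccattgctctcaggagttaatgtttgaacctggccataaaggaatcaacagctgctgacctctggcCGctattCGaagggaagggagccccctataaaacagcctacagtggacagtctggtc
SI: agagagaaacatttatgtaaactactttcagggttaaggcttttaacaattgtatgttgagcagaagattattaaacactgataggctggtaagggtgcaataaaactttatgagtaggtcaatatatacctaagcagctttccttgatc
HOXA10: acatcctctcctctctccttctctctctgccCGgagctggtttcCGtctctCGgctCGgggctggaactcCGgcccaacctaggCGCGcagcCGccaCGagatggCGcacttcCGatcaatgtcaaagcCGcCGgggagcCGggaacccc
HOXD10: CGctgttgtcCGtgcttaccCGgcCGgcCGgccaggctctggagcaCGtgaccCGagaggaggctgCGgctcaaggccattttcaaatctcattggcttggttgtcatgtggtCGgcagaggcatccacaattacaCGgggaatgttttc

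PRMT1 (chr19:49677121-49677270, plus strand), SMARCA4 (chr19:10960880-10961029, plus strand) and MCM7 (chr7:100101398-100101547, minus strand) were detected genes and show 12, 26 and 20 CpGs in 150 bases. The MCM7 stretch also held 2 CCAAT boxes and no TATA box. FABP1 (chr2:88128063-88128212, minus strand) and SI (chr3:165078497-165078646, minus strand), genes of the absorptive colonocyte list that were not detected, show 2 and 0 CpGs. FABP1 has TATAAA starting 31 bases before the start. CYP2W1 (chr7:983031-983180, plus strand) went the other way, with a signal of 9.73 and a CpG ratio of 0.39 over its whole window. HOXA10 (chr7:27179862-27180011, minus strand) and HOXD10 (chr2:176116628-176116777, plus strand) have similar ratios, 0.88 and 0.86, although HOXA10 was detected at 5.12 and HOXD10 was not detected.

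With the call used here, the CpG ratio over all genes differed more between detected and undetected genes than among classes of brightness. Its median was 0.407 for the genes not detected and 0.750, 0.824, 0.846, 0.863 and 0.861 from the dimmest to the brightest class. The share of promoters with a ratio above 0.6 was 38.4% for genes not detected, 65.1% in the dimmest class and 87.8% in the brightest. The base composition of the probes moved far less, with a median GC content of 41.7% for genes not detected and between 41.7% and 45.0% in the classes. The shares of the upper 3 classes lay between 84.2% and 87.8%.

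Of 8 motifs searched on both strands, TATAAA was more common without detection and most of the others with it. TATAAA stood in 16.2% of windows of genes not detected, in 7.71%, 6.51%, 4.91%, 4.73% and 7.34% from the dimmest class to the brightest, and in 9.34% of all windows. The ETS motif CCGGAAG stood in 5.02% of windows of genes not detected and in 12.3% of the dimmest and 23.3% of the brightest class (14.6% of all). The YY1 motif AAGATGG went from 4.10% to 4.80% and 10.8% (6.46% of all), and the GC box GGGCGG from 38.6% to 62.1% and 72.2% (59.9% of all). The NRF1 core GCGCATG stood in 2.81% of windows without detection and 8.36% of the brightest class, the E-box CACGTG in 284 of 4659 and 220 of 2057, and the CRE core TGACG in 20.9% and 35.9%, whereas CCAAT stood in 35.6% and 38.2%. The motifs for the GC box, ETS, E-box, CRE and NRF1 contain a CpG themselves, so their shares move with CpG content. Those for YY1, TATA and CCAAT contain none, but TATAAA holds only A and T. The median GC content of the windows was 56.3% for genes not detected and between 63.3% and 66.0% in the classes. The part of base composition in the TATAAA shares was not tested. A match counted anywhere in the window, so it is not by itself a TATA box.

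**Figure D5:**
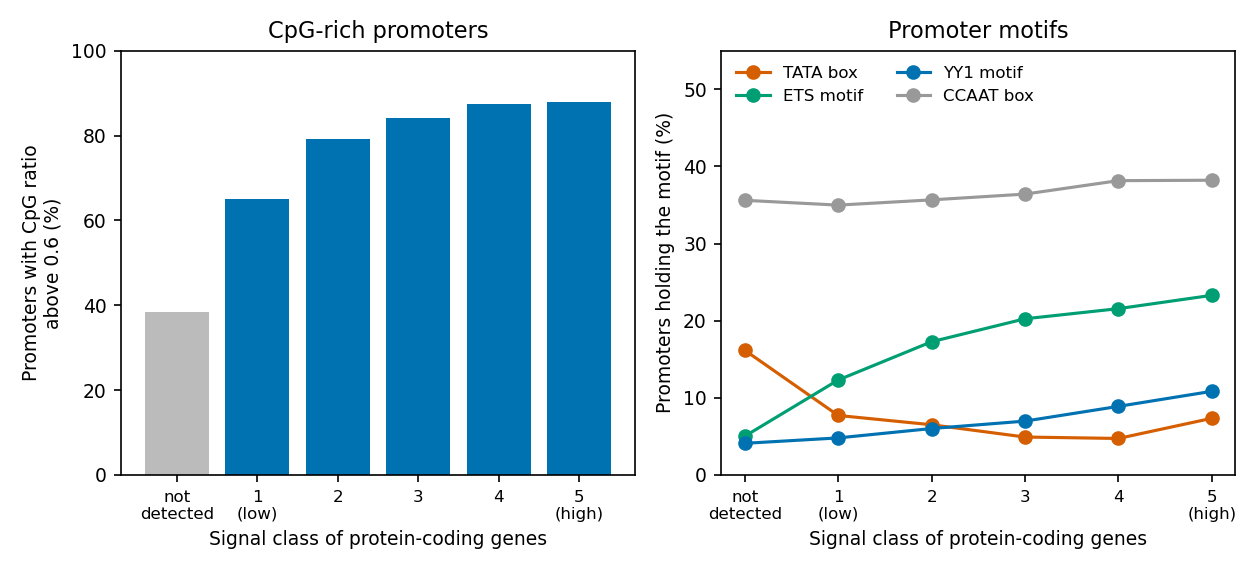
Promoter features of protein-coding genes not detected and of 5 signal classes, from 1 (dimmest) to 5 (brightest), as the percentage of 300-base windows with a CpG ratio above 0.6 (left) and the percentage holding each of 4 motifs (right). The share of CpG-rich windows goes from 38.4% to 87.8%, and the share with TATAAA is 16.2% without detection and between 4.73% and 7.71% with it.

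Gene lists whose promoters were matched for at least 80% of the members varied in how far detection went with CpG content. All 31 matched mitosis promoters and 97.1% of 35 replication promoters had a CpG ratio above 0.6, and all genes of both lists were detected. In the HOXA cluster 100% of 9 matched promoters were above 0.6 and 9 of 11 genes were detected. Other lists departed from this. For MHC class II genes 9.09% of 11 promoters were above 0.6, yet 8 of 13 genes were detected. For Wnt ligands 81.25% of 16 promoters were above 0.6 and 9 of 19 genes were detected, and for the HOXD cluster 87.5% of 8 promoters were above 0.6 and 1 of 9 genes was detected.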

How the data were processed

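Total RNA of HCT116 cells was labelled with Cy3 and hybridised to 1-colour Agilent 8x60K human arrays with probes of 60 bases. The authors deposited scanner output of Agilent Feature Extraction 10.7.1.1, whose processed intensity is background-corrected and detrended within the array and not scaled between arrays, and a table of processed intensity per probe whose values differed from it by less than 0.01 (log2) for 99.95% of probes. Per the file headers, the call of a spot as well above background used a multiplier of 13 and a significance level of 0.01.

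Here 67 non-control spots with outlier flags were left out and 58195 probes remained. The log2 intensity was averaged over a probe's spots and the 75th percentile of probes was subtracted. Of 41807 names, 21080 matched a RefSeq symbol and 1567 a single synonym. The order of spot signals has no error between arrays, since 1 array cannot give it. The functions that join spots and probes were tested on simulated data. Python 3.11.15, pandas 2.3.3, R 4.3.3 and limma 3.58.1 were used.

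Promoters of genes on chromosome 8 and genes of chromosome Y were left out. A total of 49 lists and 18 symbol families were described by counts and medians, without tests. The members and lists were chosen with earlier results of these data known. Genes were named by rule: the study's genes and markers, the 25 brightest, and of each list the 4 brightest, the dimmest and the undetected members (the first 3 in list order where over 6). A few genes that this rule names are not reported here. Named after their values were seen were CCT4, CCT5, PSMB9, PSMB10, COX6B2, ENO3, CGAS, IFI16, AIM2, FABP1, SI, MUC2, TFF1, HOXD9, HOXD10, HBE1, HBG1 and the bright markers of other cells.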

Additional observations from a re-analysis of the deposited data

Results flagged for a closer look

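Of 1507 probes that carry no gene name, 413 (27.4%) were well above background on the control array, whereas 4 of 308 negative control spots (1.30%) were. The brightest of them had a signal of 11.36. These probes were singled out because they lie outside the gene lists described above. What they measure is not given in the files used here.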

How the results depend on the processing

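With the looser call of a spot as positive and significant, 25302 genes were detected in place of 18128, and requiring every usable probe to be well above background gave 15007. Under 5 alternative calls and filters, 229 counts of list members stayed within 1.5 times the reported count and 16 did not. The looser call gave 11 absorptive colonocyte genes, 12 secretory cell, 26 interferon and interleukin, 21 cytochrome P450, 11 erythroid, 5 fibroblast, 11 hepatocyte, 13 muscle, 13 germ cell and 3 HOXD genes. Requiring every probe gave 2 absorptive colonocyte, 3 secretory cell, 25 receptor tyrosine kinase, 3 erythroid, 2 hepatocyte and 4 neuron and glia genes. The cause of the differences between lists was not tested.

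The median percentile of a list's detected members moved by less than 15.7 points, the median SD between probes of a gene, in 476 comparisons. With the looser call it became 60.4 for keratins, 31.6 for secretory cells, 42.3 for Wnt ligands, 58.0 for Wnt receptors, 25.2 for fibroblast, 38.9 for endothelium, 20.5 for hepatocyte, 48.1 for melanocyte, 44.8 for pluripotency, 43.8 for HOXC and 21.5 for HOXD genes. It was 35.97 for erythroid genes with the 99th percentile of negative controls as the limit and 47.7 for Wnt targets with the median over probes. Secretory cell genes passed the middle, at 51.2, when every probe was required.

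The median signal of detected genes was -1.88 when scaled to the 75th percentile of probes well above background and 5.11 when scaled to the array median, which shifts all genes alike. For single named genes the signal minus that median stayed within the spread in 181 comparisons and moved in 9. With the median over probes it became 7.23 for H4C3, 5.39 for ZNF865, 8.25 for RPS26, 2.28 for CC2D1A, 1.86 for KRT8 and -2.21 for EGFR, which was thus below the median of detected genes and not above it. With normexp it became -1.96 for LOC101929633, -1.89 for GCG and -1.91 for U2SURP. With normexp the distance from the 5th to the 95th percentile was 7.39 in place of 9.29. Promoter shares stayed within 1.5 times of those reported. With the start of highest CpG ratio, an alternative chosen after seeing the data, 42.2% of windows without detection and 92.7% of the brightest class exceeded 0.6. With the looser call these shares were 35.1% and 88.0%, and that of the dimmest class was 48.8%. The larger step then lay among the classes of detected genes. Calling a probe by more than 1 spot in 2, also chosen after seeing the data, gave 18125 genes. No paired analysis was possible because each group holds 1 array and no test was run. Dim genes are limited by signal over background.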
